A study of Mus musculus with 4 samples.

Results

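The data describe 6 genes of the switch from mitosis to meiosis in mouse germ cells, out of 40999 features listed in the count files. They were taken by symbol, with earlier results of these data known. Stra8, Gm1564 and Ythdc2 act at meiosis entry, and Rec8, Smc1b and Stag3 encode meiotic subunits of cohesin. Gm1564 is the symbol in the files for Meioc. Gonads of wild-type C57BL/6J embryos were collected daily from E11.5 to E14.5, with XX and XY gonads mixed, and at least 6 male and 6 female gonads of a pair of litters made up each pool. Each pool gave 1 library of total RNA, and there are no replicates. The E11.5 pool held the genital ridge with its mesonephros, the embryonic kidney next to the gonad, and the mesonephros was dissected away at the later stages. XX and XY gonads cannot be told apart in these pools, and in whole gonads fewer germ cells and less RNA per germ cell cannot be told apart either.

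Germ cells of the fetal ovary stop dividing by mitosis and start meiosis before birth, while those of the fetal testis arrest and start meiosis only after birth. Retinoic acid and BMP signals induce STRA8, a transcription factor that works with its partner MEIOSIN, and the RNA helicase YTHDC2 forms a complex with MEIOC that ends the mitotic programme. Cohesin is the ring that holds sister chromatids together. In meiosis the kleisin REC8 stands in for RAD21, SMC1B for SMC1A and STAG3 for STAG1 or STAG2, and this form of the ring carries the chromosome axis on which homologous chromosomes pair.

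Each of the 6 genes was counted on mm10 over its annotated exons. Stra8 spans chr6:34920921-34939344 on the plus strand with 1496 exonic bases. Gm1564 spans chr11:102664966-102682240 on the plus strand with 5198 exonic bases. Among the cohesin genes, Rec8 spans chr14:55617993-55625395 on the plus strand with 2396 exonic bases, Smc1b spans chr15:85064685-85131975 on the minus strand with 4062, and Stag3 spans chr5:138280132-138312397 on the plus strand with 4667. No exon of another listed gene overlaps an exon of these 6. Fam118a and Gm10923 lie on the opposite strand within the span of Smc1b, outside its exons.

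The 250 bases before the RefSeq start (GRCm38.p6, the assembly of mm10) were read for 5 of the 6 genes and searched on both strands for 4 motifs. The sequences of Stra8 and Smc1b are shown because Smc1b was the first of the genes to rise, at E12.5, and Stra8 rose by the largest ratio between neighbouring libraries, at E13.5. The Stra8 window is chr6:34920698-34920947 on the plus strand, and the Smc1b window is chr15:85131958-85132207, printed 5′ to 3′ on the minus strand. Capitals mark AGGTCA, the half-site of nuclear receptors such as the retinoic acid receptors, in Stra8, and TTCCCGC, the reverse strand of the E2F-type motif GCGGGAA, in Smc1b.
Stra8: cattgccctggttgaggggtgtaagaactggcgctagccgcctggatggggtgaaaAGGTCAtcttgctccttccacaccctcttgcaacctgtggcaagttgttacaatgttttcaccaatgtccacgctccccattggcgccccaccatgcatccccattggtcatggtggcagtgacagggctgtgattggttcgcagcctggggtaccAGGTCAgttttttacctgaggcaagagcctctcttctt
Smc1b: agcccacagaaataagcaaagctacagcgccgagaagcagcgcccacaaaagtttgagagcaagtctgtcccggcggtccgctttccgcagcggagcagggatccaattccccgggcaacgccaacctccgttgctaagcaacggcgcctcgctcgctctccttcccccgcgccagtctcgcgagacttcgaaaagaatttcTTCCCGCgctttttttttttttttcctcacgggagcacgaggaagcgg
AGGTCA occurred 2 times in the Stra8 window, at bases 194 to 189 and 38 to 33 before the start, and in none of the other 4 windows. Of 32851 promoter windows of the same length, 14% held AGGTCA at least once and 1.36% at least 2 times. The E2F-type motif lay at bases 48 to 42 before the Smc1b start and at bases 228 to 222 before the Gm1564 start, and 3.82% of all windows held it.
Stag3 held CACGTG, the E-box motif, at bases 170 to 165 before its start, against 6.02% of all windows. The windows of Gm1564 and Stag3 lie wholly within first exons of the files' annotation, so only their matches with 10 bases on either side are shown, at chr11:102665347-102665373 and chr5:138280329-138280354, both on the plus strand.
Gm1564: cttcctttgaGCGGGAAacatcttcag
Stag3: cgctggagccCACGTGacaggactgc
The motif CNCCTCAG was found in none of the 5 windows and in 6.42% of all windows, and the Rec8 window held none of the 4 motifs. Of its 250 bases, 173 lie within exons of the files' annotation, as do 27 in the Stra8 window and 18 in the Smc1b window. No match overlapped another. A match is only a run of letters in the window, and no binding was measured.

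From E11.5 to E14.5 the libraries held 31266481, 25593453, 31752562 and 31526303 counts. Where a gene has 0 counts, as many as 3 are allowed for, which is 0.0945 to 0.117 CPM, the count scaled to library size. Genes of rRNA took 17.7%, 8.9%, 8.72% and 48.9% of them in the same order, so levels are given after TMM scaling, which sets the bulk of genes equal between libraries. The 10 germ cell markers, among them Dazl and Ddx4, summed to 84.9, 436, 503 and 375 CPM on this scale. Dazl gave 1.55, 145, 208 and 163 CPM of these sums, so it was a small part at E11.5. The 6 mesonephros markers summed to 122 CPM at E11.5 and to between 17.2 and 22.0 later, and the 5 markers of gonadal somatic cells to between 685 and 1077. The markers of Sertoli cells summed to 84.2 CPM at E11.5 and to between 439 and 518 later, those of pregranulosa cells to between 114 and 180, and those of red cells to 1386, 1594, 624 and 171. All these values and intervals cover counting error only, and a comparison is between libraries, not between stages in general.

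A gene is said to rise or fall between 2 libraries when it passed edgeR's filter on low counts, changed at least 2-fold after TMM scaling and had an exact Clopper-Pearson 95% counting interval that left out no change. Log2 fold changes are the later library over the earlier one. The 4 comparisons share libraries and are not independent of each other.

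At meiosis entry, Stra8 was at or under the detection floor up to E12.5 and clearly present from E13.5. It had 0 counts at E11.5 and 3 at E12.5, then 430 at E13.5 and 272 at E14.5. On the TMM scale these are 0, 0.0956, 10.9 and 14.4 CPM, and the upper limit at E11.5 was 0.108 CPM. The first 2 libraries were at or under the floor, so no fold is given between them, and both later libraries stood far above them. From E12.5 to E13.5 Stra8 rose by a log2 fold change of 6.77, a ratio of 109 with a counting interval of 38.6 to 552, which is wide because the earlier library held 3 counts. At the last step, E14.5 versus E13.5, its log2 fold change was 0.43 (0.20 to 0.65), under the 2-fold limit.

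Gm1564 (Meioc), the partner of YTHDC2, came up in the same interval. It had 17 counts at E11.5 and 27 at E12.5, then 496 at E13.5 and 492 at E14.5. Its levels were 0.496, 0.861, 12.53 and 26.1 CPM on the TMM scale. The intervals of the 2 early libraries overlapped, and those of E13.5 (11.45 to 13.69 CPM) and E14.5 (23.9 to 28.5 CPM) did not. Gm1564 rose 14.48-fold from E12.5 to E13.5, with a log2 fold change of 3.86 (3.30 to 4.48). It rose again from E13.5 to E14.5 by a log2 fold change of 1.08 (0.90 to 1.26), but this step rests on the scaling, since the counts themselves were nearly equal and total-count scaling gives -0.0014.

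Ythdc2, the RNA helicase of the pair, was on at every stage and passed the 2-fold limit in no comparison. It spans chr18:44827792-44889720 on the plus strand with 7172 exonic bases. Its counts from E11.5 to E14.5 were 1199, 1054, 1515 and 627, or 35.0, 33.6, 38.3 and 33.3 CPM after scaling. The E13.5 library was the highest, its interval overlapped that of E11.5, and the intervals of the other three overlapped each other. Its log2 fold changes were -0.06 (-0.18 to 0.06) at E12.5 versus E11.5, 0.19 (0.07 to 0.30) at E13.5 versus E12.5 and -0.18 (-0.32 to -0.05) at E14.5 versus E13.5. At E12.5 there were thus 1054 counts of Ythdc2 beside 27 of Gm1564, while at E14.5 there were 627 beside 492. Per length, Ythdc2 stood at 8.81 TPM, the deposited level per exonic length, at E12.5 with Gm1564 at 0.311 TPM, and at 3.11 TPM (2.87 to 3.37) at E14.5 with Gm1564 at 3.37 TPM (3.08 to 3.68), where the intervals overlap.

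**Figure D1:**
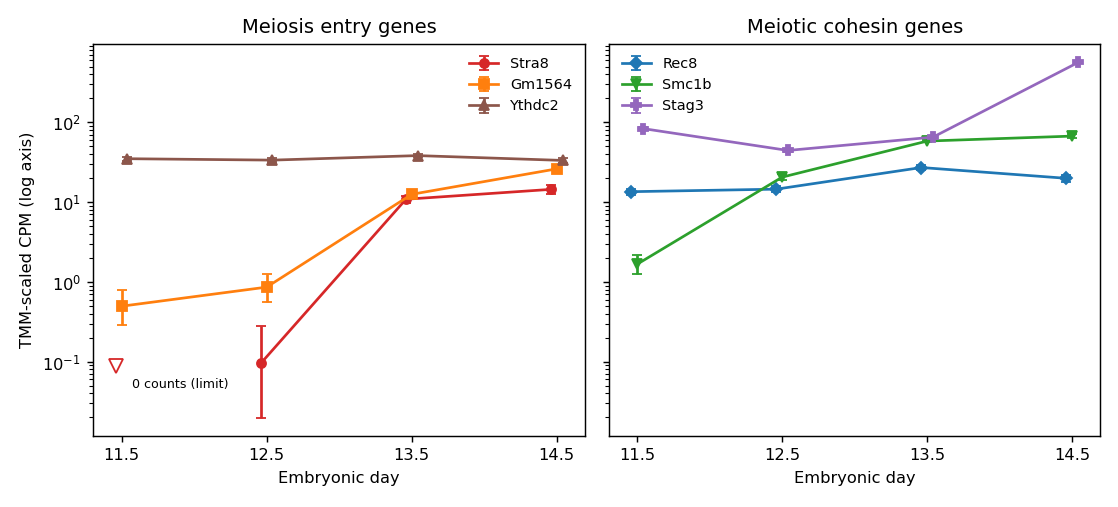
TMM-scaled CPM on a log axis against embryonic day for the 3 meiosis entry genes (left) and the 3 meiotic cohesin genes (right), 1 library per point, with bars for the exact 95% counting interval and lines only joining the points of a gene. The open triangle marks the floor of 3 counts for Stra8 at E11.5, where it had 0 counts. Ythdc2 stays between 33.3 and 38.3 CPM while Stag3 climbs to 563 CPM at E14.5.

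Smc1b, the meiotic SMC1 subunit, was the first of the 6 genes to rise. It had 57 counts at E11.5, rising to 645 at E12.5 and 2304 at E13.5, with 1265 at E14.5. Its scaled levels were 1.66, 20.6, 58.2 and 67.2 CPM, and no 2 of the 4 intervals overlapped. From E11.5 to E12.5 it rose 12.3-fold, or 3.63 (3.24 to 4.05) on the log2 scale, and from E12.5 to E13.5 it rose 2.83-fold, or 1.499 (1.37 to 1.63). From E13.5 to E14.5 its log2 fold change was 0.22 (0.12 to 0.32). In the first step 8 of the 10 germ cell markers rose too, beside 7.92% of all genes. Among them were Dazl, by 6.55, and Ddx4, by 4.28 on the log2 scale, both more than Smc1b. Smc1b went from 19.6 to 47.1 counts per 1000 counts of the 10 markers. Per 100 counts of Ddx4 alone it went the other way, from 58.8 to 37.4. The mesonephros left the pool in the same step, and its part was not tested.

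Rec8, the meiotic kleisin, changed least among the cohesin genes. Its counts in order of age were 463, 456, 1074 and 374, or 13.51, 14.53, 27.1 and 19.9 CPM after scaling. The intervals of the first 2 libraries overlapped, E13.5 was the highest and E14.5 lay between. Rec8 came closest to the 2-fold limit at E13.5 versus E12.5, where it was 1.86-fold higher with a log2 fold change of 0.90 (0.74 to 1.06). At E14.5 versus E13.5 its log2 fold change was -0.43 (-0.61 to -0.26).

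Stag3, the meiotic STAG subunit, followed another course, with its lowest level at E12.5 and by far its highest at E14.5. It had 2863 counts at E11.5 and 1393 at E12.5, then 2581 at E13.5 and 10590 at E14.5. These are 83.5, 44.4, 65.2 and 563 CPM on the TMM scale, and none of the 4 intervals overlapped. Stag3 rose 8.73-fold from E13.5 to E14.5, or 3.13 (3.06 to 3.19) on the log2 scale. It was 1.88-fold higher at E11.5 than at E12.5, a log2 fold change of -0.91 (-1.005 to -0.82), and its log2 fold change from E12.5 to E13.5 was 0.55 (0.46 to 0.65).

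The 2 libraries in which Stag3 was highest are also those with the largest rRNA shares, at 17.7% and 48.9%. Among the 13135 genes whose count was 50 or more in each library, a cut chosen after the values were seen, 97.6% had fewer counts at E14.5 than at E13.5, with a median ratio of 0.468. The ratio for Stag3 was 4.10, the eighteenth largest, whereas it was 0.549 for Smc1b, 0.414 for Ythdc2 and 0.348 for Rec8. All 18 genes with a ratio of at least 4, Stag3 included, were also at least 1.5-fold higher at E11.5 than at E12.5 after scaling, against 7.96% of all 13135 genes. At a ratio of at least 3 this held for 30 of 31 genes. The part of the rRNA content or of the library preparation in the E14.5 level of Stag3 was not tested.

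**Figure D2:**
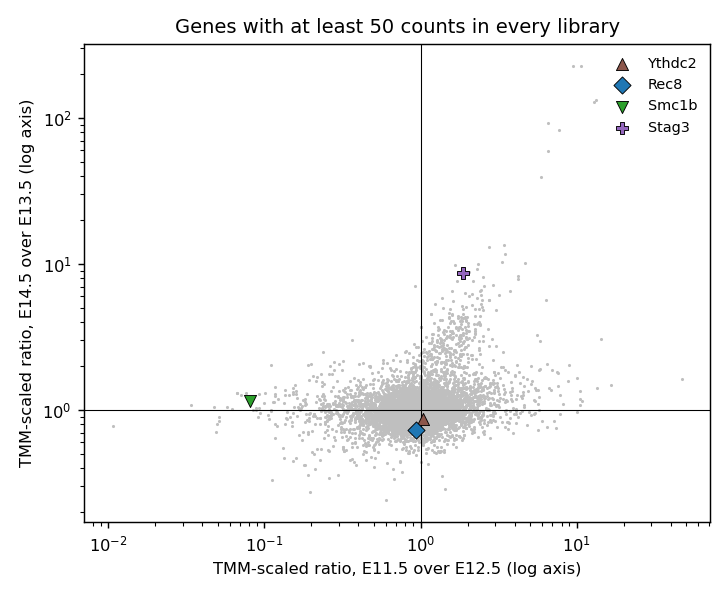
TMM-scaled ratio of E14.5 over E13.5 (vertical, log axis) against E11.5 over E12.5 (horizontal, log axis) for 13135 genes whose count was 50 or more in each library, with 4 of the 6 genes marked. Stag3 lies among the genes that are high on both axes, while Ythdc2 and Rec8 lie near the crossing of the lines at 1 and Smc1b lies far to the left, at a ratio of 0.0809.

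Counted by comparison, 1 of the 5 genes tested rose at E12.5 versus E11.5 (Smc1b) and none fell, beside 16.2% of 19215 genes that changed in either direction and 7.92% that rose. At E13.5 versus E12.5, 3 of 6 rose (Stra8, Gm1564 and Smc1b), where 3.91% of 19152 genes changed and 2.53% rose. At E14.5 versus E13.5, 2 of 6 rose (Gm1564 and Stag3), beside 7.33% of 18992 genes that changed and 5.89% that rose. With total counts in place of TMM, this last split became 1 higher (Stag3) and 2 lower (Ythdc2 and Rec8), where 60.7% of all genes passed the rule. With the ratio of the deposited TPM it became 1 higher and 4 lower, where 89% passed. Stag3 stayed higher with both, at 2.05 and 1.49 on the log2 scale, while Stra8 turned to -0.65 and -1.21 and Smc1b to -0.85 and -1.41. Across the stages without mesonephros, E14.5 versus E12.5, 4 of 6 rose, beside 10.3% of 18704 genes that changed and 7.96% that rose. Total counts gave 3 higher and 1 lower (Ythdc2) there, where 55.6% of all genes passed the rule, and the TPM ratio 3 higher and 2 lower (Ythdc2 and Rec8), where 82.3% passed, and Smc1b passed in neither. Stra8 rose by 7.18 (5.69 to 9.54), Gm1564 by 4.93 (4.38 to 5.55), Stag3 by 3.67 (3.59 to 3.76) and Smc1b by 1.72 (1.58 to 1.86) on the log2 scale in that comparison, while Rec8 stood at 0.46 (0.26 to 0.66) and Ythdc2 at -0.00 (-0.15 to 0.14). With the deposited TPM the median gene is shifted by 0.28 at E12.5 versus E11.5, 0.13 at E13.5 versus E12.5, -1.63 at E14.5 versus E13.5 and -1.49 at E14.5 versus E12.5 on the log2 scale, and with total counts by 0.16, 0.03, -1.07 and -1.04.

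**Figure D3:**
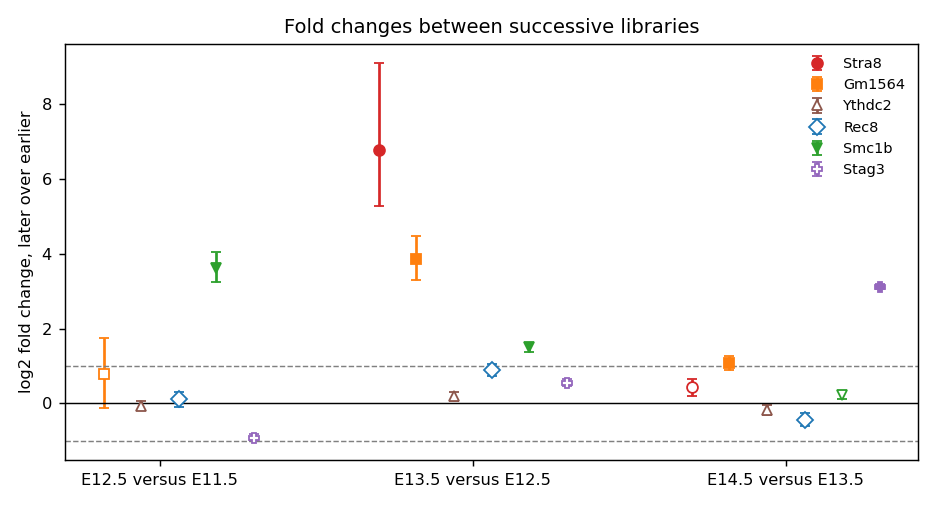
Log2 fold change of each of the 6 genes in the 3 successive comparisons, with bars for the exact 95% counting interval, filled symbols for genes that rose and dashed lines at 2-fold. Smc1b rose at E12.5, Stra8, Gm1564 and Smc1b at E13.5, and Gm1564 and Stag3 at E14.5, and Stra8 has no point in the first comparison because both libraries were at or under the floor.

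Levels of different genes can be compared per length, within a library, in TPM. At E11.5 the order was Stag3 at 27.6 TPM, Rec8 at 8.70, Ythdc2 at 7.53, Smc1b at 0.632, Gm1564 at 0.147 and Stra8 at 0. The intervals of Gm1564 and Stra8 overlapped at this stage, and the interval of Rec8 (7.93 to 9.53) overlapped that of Ythdc2 (7.11 to 7.97). At E12.5 the order was Stag3 at 17.9 TPM, Rec8 at 11.4, Smc1b at 9.52, Ythdc2 at 8.81, Gm1564 at 0.311 and Stra8 at 0.120, with overlapping intervals for Smc1b and Ythdc2 and for the last 2. By E13.5 Smc1b at 29.5 TPM (28.3 to 30.7) had drawn level with Stag3 at 28.8 (27.7 to 29.9), followed by Rec8 at 23.3, Stra8 at 15.0, Ythdc2 at 10.99 and Gm1564 at 4.96. At E14.5 Stag3 at 80.8 TPM was far ahead of Smc1b at 11.1, and Stra8 at 6.47 (5.73 to 7.29) and Rec8 at 5.56 (5.01 to 6.15) overlapped, as did Gm1564 and Ythdc2.

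Each meiotic cohesin subunit was set against its mitotic counterpart in the same library, a ratio of TPM that needs no scaling between libraries. Smc1b over Smc1a was 0.0127 (0.00961 to 0.0165), 0.186 (0.171 to 0.203), 0.540 (0.513 to 0.568) and 0.627 (0.583 to 0.673) from E11.5 to E14.5. It was thus higher in each library than in the one before, with no overlap of intervals. Rec8 over Rad21 was 0.0879 (0.0799 to 0.0965), 0.0808 (0.0734 to 0.0888), 0.169 (0.159 to 0.180) and 0.126 (0.113 to 0.140) in the same order. It stayed below 1 in every library, with its highest value at E13.5 and overlapping intervals at E11.5 and E12.5. Stag3 over the sum of Stag1 and Stag2 was 0.363 (0.348 to 0.378), 0.187 (0.177 to 0.198), 0.272 (0.261 to 0.284) and 2.51 (2.43 to 2.59). At E14.5 alone a meiotic subunit exceeded its mitotic counterparts, in a mixture of germ and somatic cells of which the latter use the mitotic forms. This was Stag3, which was among the genes high in both rRNA-rich libraries. A ratio within a library does not remove an effect of the library on a single gene. The part of the library preparation in this ratio was not tested.

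**Figure D4:**
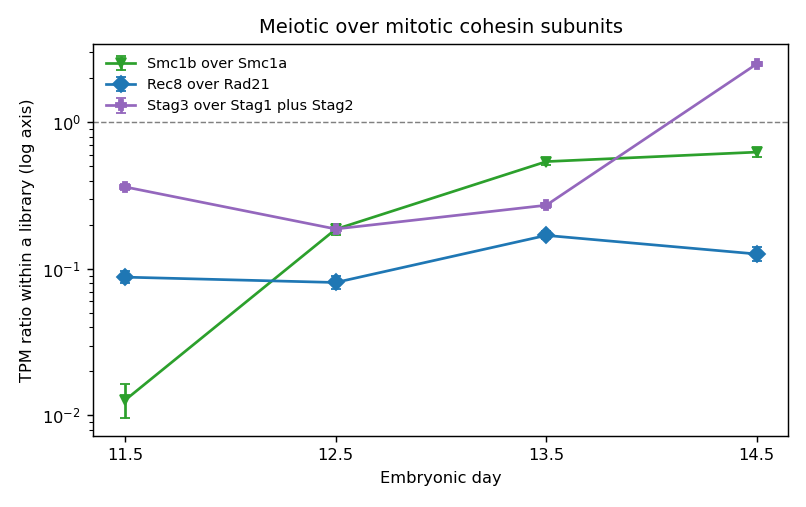
Ratio of TPM within a library, on a log axis, of Smc1b over Smc1a, Rec8 over Rad21 and Stag3 over Stag1 plus Stag2 against embryonic day, with bars for the exact 95% counting interval and a dashed line at 1. Only Stag3 at E14.5, at 2.51, lies above the line, in the library with the largest rRNA share.

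Of the other cohesin genes, Rad21l rose at E14.5. None of the 5 mitotic and shared subunits (Smc1a, Smc3, Rad21, Stag1 and Stag2) rose or fell in any of the 4 comparisons. Their log2 fold changes lay between -0.25 and 0.23. Of all genes, 16.2%, 3.91%, 7.33% and 10.3% rose or fell in the 3 successive comparisons and in E14.5 versus E12.5. The medians of the 5 subunits were 0.08, 0.00057, -0.01 and -0.17 in the same order, with all genes within 0.01 of 0. The other meiotic kleisin, Rad21l, had 3, 1, 10 and 131 counts from E11.5 to E14.5 and rose at E14.5 versus E13.5 by a log2 fold change of 4.78 (3.88 to 5.90). Of 14 cohesin loaders, releasers and protectors, 1 rose at E12.5 versus E11.5, where 7.92% of all genes rose, so the count was near that share. This was the acetyltransferase gene Esco2, with a log2 fold change of 1.22 (1.08 to 1.36). None of the 14 rose or fell in the other 3 comparisons. The medians of these 14 were 0.28, -0.04, -0.11 and -0.17 in the same order. Wapal, which encodes the releaser WAPL, had a log2 fold change of 0.49 (0.44 to 0.54) at E12.5 versus E11.5. Sgol2, which encodes the shugoshin that protects centromeric cohesin in meiosis, had one of 0.44 (0.35 to 0.54) in that step. Both were under the 2-fold limit, and Pttg1 at 0.46 and Esco1 at 0.43 were similar. At E14.5 versus E13.5 Wapal and Sgol2 stood at -0.33 (-0.39 to -0.28) and -0.25 (-0.37 to -0.13).

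The 10 germ cell markers served as a second scale, with 2911, 13686, 19894 and 7059 counts in all from E11.5 to E14.5. Dazl gave 53 of these counts at E11.5 and 4555 at E12.5, so the make-up of the scale differs between these libraries. Of the 10, 8 rose at E12.5 versus E11.5, beside 7.92% of all genes. The log2 fold changes of the 10 ran from -0.50 to 6.55, with a median of 2.38. None rose or fell at E13.5 versus E12.5, where 3.91% of all genes did. At E14.5 versus E13.5, 1 of 10 fell, beside 1.44% of all genes. This was Tfap2c, a factor of early germ cells, which fell by 2.32 on the log2 scale. At E14.5 versus E12.5, 3 of 10 fell and none rose, beside 2.38% of all genes that fell. These were Tfap2c, Prdm1 and Sox2, with log2 fold changes of -2.57, -1.10 and -1.07. Per 1000 germ cell marker counts, Stra8 stood at 0, 0.219, 21.6 and 38.5 counts from E11.5 to E14.5, and Gm1564 at 5.84, 1.97, 24.9 and 69.7. Both were thus higher at E13.5 than at E12.5 on this scale too, where the markers themselves had a median log2 fold change of -0.08. Smc1b stood at 19.6, 47.1, 116 and 179 per 1000, and the intervals at E11.5 (14.8 to 25.4) and E12.5 (43.5 to 51.0) did not overlap. Per 100 counts of Ddx4 alone, Smc1b stood at 58.8, 37.4, 77.8 and 108. The direction from E11.5 to E12.5 thus depends on the marker used. Ythdc2 stood at 412, 77.01, 76.2 and 88.8 and Rec8 at 159, 33.3, 54.0 and 53.0 per 1000, so that both were highest at E11.5, when germ cell markers were lowest and the mesonephros was in the pool. Stag3 stood at 984, 102, 130 and 1500 per 1000, lowest in the 2 middle libraries. The 10 markers include Kit and Sox2, which other cells also express, and they did not move as one at E12.5 or at E14.5. The scale is therefore a description and does not measure germ cell number.

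**Figure D5:**
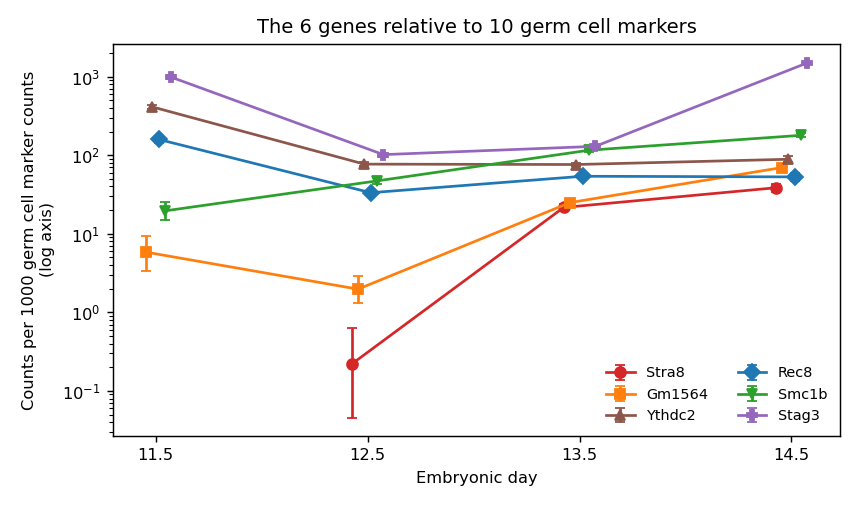
Counts of each of the 6 genes per 1000 counts of the 10 germ cell markers, on a log axis, against embryonic day, 1 library per point, with bars for the exact 95% counting interval. Stra8 at E11.5 had 0 counts and is not drawn, and Stra8, Gm1564 and Smc1b are highest at E14.5, where Stag3 reaches 1500.

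The list of 9 meiosis entry activators and cofactors includes Stra8, Gm1564 and Ythdc2 themselves. At E12.5 versus E11.5, 4 of its 8 genes tested rose, beside 7.92% of all genes. The median log2 fold change of the 8 was 1.001, beside -0.0041 for all genes. The 4 risers, none of them among the 6 genes, were Dazl, the RNA-binding factor that licenses germ cells for meiosis, Zglp1, the effector of BMP signals, Rbm46 and Dmrt1. Dazl is also 1 of the 10 germ cell markers, of which 8 rose in this step with a median of 2.38. At E13.5 versus E12.5, 2 of 9 rose, with a median of 0.50, beside 2.53% of all genes. Both, Stra8 and Gm1564, are among the 6 genes already described, and no other gene of the list rose in this step. At E14.5 versus E13.5, 2 of 9 rose, with a median of -0.14, beside 5.89% of all genes. These were Gm1564, again from the 6 genes, and Gm4969, the symbol in the files for Meiosin. Gm4969 had 170, 192, 394 and 472 counts from E11.5 to E14.5, or 4.96, 6.12, 9.96 and 25.1 CPM. RNA of the STRA8 partner was thus counted at E11.5 and E12.5, when Stra8 was at or under the floor, in pools that do not show which cells it came from. Gm4969 rose by a log2 fold change of 1.35 (1.15 to 1.55) at E14.5 versus E13.5, a step smaller than the -1.63 by which the TPM ratio shifts all genes.

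Among 9 genes of retinoic acid supply, breakdown and reception, 2 rose and 3 fell at E12.5 versus E11.5, of 7 tested, with a median log2 fold change of -0.76, beside 16.2% of all genes that changed. None of them rose or fell in the next 2 comparisons, with medians of 0.10 and 0.01. Aldh1a1, which makes retinoic acid, rose by 3.898 (3.76 to 4.04) and Cyp26b1, which breaks it down, by 1.28 (1.21 to 1.36) on the log2 scale. Aldh1a2, the synthesis gene of the mesonephros, fell by 1.70 and the receptor genes Rarb and Rarg by 3.14 and 1.28. The mesonephros left the pool in this step, and 4 of its 6 markers fell with these genes; its part in them was not tested. When Stra8 rose, from E12.5 to E13.5, Cyp26b1 had a log2 fold change of -0.37 (-0.44 to -0.31) and Aldh1a1 one of 0.60 (0.55 to 0.65), both under the 2-fold limit.

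Of 10 repressors of meiotic genes, none of the 9 tested rose or fell in the first 2 comparisons, where 16.2% and 3.91% of all genes did. At E14.5 versus E13.5, 1 of 10 rose, beside 5.89% of all genes. The medians were 0.04, 0.01 and 0.04. The riser was Nanos2, which holds back meiosis in male germ cells, with 0, 0, 12 and 75 counts and a log2 fold change of 3.71 (2.84 to 4.75). The members of the MGA and MAX repressor complex were nearly level, with Mga at 234, 248, 272 and 274 CPM and Max at 32.8, 40.7, 39.3 and 38.0 CPM.

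The 32 genes of meiotic prophase, which act downstream, gave rises and no falls in each of the 4 comparisons. At E12.5 versus E11.5, 15 of 25 tested rose, and the median log2 fold change was 1.69, beside 7.92% of all genes that rose. In that step the mesonephros left the pool and 8 of the 10 germ cell markers rose, with a median of 2.38, and the part of either was not tested. At E13.5 versus E12.5, 12 of 28 rose, with a median of 0.86, beside 2.53% of all genes and none of the germ cell markers. At E14.5 versus E13.5, 18 of 31 rose with a median of 1.13, beside 5.89% of all genes, and at E14.5 versus E12.5, 23 of 31 rose with a median of 1.88, beside 7.96%, while the median of all genes lay within 0.01 of 0. These medians hold relative to all genes, which shift as given above with total counts or TPM. Sycp1, a synaptonemal complex gene, had 14, 121, 698 and 684 counts, and Sycp3, of the chromosome axis, had 6, 66, 202 and 331. Sycp3 rose by 3.56 (2.39 to 5.08), 1.28 (0.87 to 1.70) and 1.80 (1.55 to 2.06) in the 3 successive comparisons. Dmc1, the meiotic recombinase, rose by 1.03 (0.76 to 1.32) at E13.5 versus E12.5, the same step as Stra8.

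Among themselves the 6 genes had patterns of different shape. Likeness was measured as the root mean square difference of log2 levels, each gene centred on its mean over the 4 libraries, with 0.1 CPM added. The closest pair was Ythdc2 and Rec8 at 0.349, and Stra8 and Gm1564 followed at 0.986. Stra8 and Ythdc2 lay farthest apart, at 3.25. The 3 cohesin genes were 1.39 (Rec8 and Stag3), 1.82 (Rec8 and Smc1b) and 2.07 (Smc1b and Stag3) apart, so the subunits of 1 complex did not share a course in these libraries.

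Among 14069 genes with at least 100 counts in some library, Gm1564 was the nearest to Stra8, followed by Aspn at 1.29 and Cyp11b1 at 1.30, and no gene lay within 0.25. The nearest to Gm1564 were Bcan at 0.513, Dmrtc2 at 0.554 and LOC102639828 at 0.619, again with none within 0.25. Ythdc2 had 9396 genes within 0.25, led by 1500009L16Rik, Acot8 and Gm16523, since most genes were level. Rec8 had 379 genes within 0.25, led by Slc46a3 at 0.0743, LOC102639100 and Camk2b. Smc1b had 9 such genes, led by Clu at 0.169, Srpx2 at 0.197 and Plin1 at 0.201. Stag3 had 1 such gene, Dnaja4 at 0.139, which had 697, 274, 489 and 2328 counts from E11.5 to E14.5, and the next were Zfp541 at 0.347 and Nudt1 at 0.348. These distances over 4 libraries are descriptions of shape.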

How the data were processed

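Total RNA of pooled embryonic gonads was sequenced in 4 libraries, 1 for each day from E11.5 to E14.5, as the labels give it. The authors depleted rRNA, built stranded libraries with molecular identifiers, mapped them to mm10 (STAR), collapsed duplicates by identifier (UMI-tools) and counted reads per gene with featureCounts. The deposited values are these deduplicated counts, with RPKM and TPM that the authors derived from them. TPM and RPKM recomputed from counts and exon lengths matched 100% of the rows. Tool versions, the annotation release and the strand setting of the counting are not given in the sources used here.

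Counts were filtered with filterByExpr (minimum count 10) and TMM-scaled for each pair of libraries in edgeR 4.0.16 (R 4.3.3), and a gene was called at |log2 fold change| ≥ 1 (prior count 0.125) with an exact Clopper-Pearson 95% interval that excludes 0. With 1 library per time point no dispersion could be estimated and no p-value is given. Levels per library used TMM over the 4 libraries together and exact Poisson 95% intervals. The whole table was used in each comparison. Ratios, patterns and promoter searches used Python 3.11.15 with numpy 2.4.6, pandas 2.3.3 and scipy 1.17.1.

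The text names the 6 genes, the members of the gene and marker lists, the 3 genes of nearest pattern to each and genes that overlap them. The members and lists were chosen with earlier results of these data known. Older symbols were matched through the reference tables. Alternatives were DESeq2 1.42.0 size factors, total counts, TMM over all 4 libraries, totals that leave out rRNA and each library's top 10 genes, the TPM ratio, no filter, a prior count of 2, stricter fold rules and edgeR's exact test at a preset biological coefficient of variation of 0.1, 0.2 and 0.4. The summed germ cell markers as a scale were chosen after seeing the data. Reads were not realigned, and the protein sequences of these genes were not used here. The promoter sequence of Ythdc2 is not reported here.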

Additional observations from a re-analysis of the deposited data

How the results depend on the processing

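Of 52 recounts of the genes that rose or fell, 43 stayed within 1.5 times and kept the direction of most called genes. At E12.5 versus E11.5 the TPM ratio gave 2 (Gm1564 and Smc1b) in place of 1, and germ cell marker totals gave 5, with Smc1b higher and Gm1564, Ythdc2, Rec8 and Stag3 lower, where 93.9% of all genes passed the rule. At E13.5 versus E12.5 edgeR's exact test at an assumed coefficient of variation of 0.4 left 1 (Stra8) of 3. At E14.5 versus E13.5 total counts gave 3 and the TPM ratio 5, in each case with Stag3 as the only gene higher, while an interval wholly beyond 2-fold, a 4-fold limit and a coefficient of 0.2 each left 1 (Stag3) of 2, and a coefficient of 0.4 left 0. At E14.5 versus E12.5 the count stayed between 3 and 5: total counts gave 4, with Ythdc2 lower, the TPM ratio gave 5, with Ythdc2 and Rec8 lower, and a 4-fold limit and a coefficient of 0.4 each gave 3, and Smc1b was lost in all 4. The log2 fold change of Gm1564 at E14.5 versus E13.5 was -0.0014 with total counts and -0.56 with the TPM ratio. Both scalings shift all genes by the amounts given above. Of 161 recomputed fold changes of the 6 genes, 112 stayed within their counting interval and 47 moved out of it. The other 2, both of Gm1564 at E14.5 versus E13.5, were those of a called gene that changed sign. Sign changes of genes not called are among the 47, as for Stra8 and Smc1b at E14.5 versus E13.5 with total counts and the TPM ratio.

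As ratios of counts, without length, Rec8 over Rad21 was 0.0559, 0.0514, 0.108 and 0.0804 from E11.5 to E14.5, and Stag3 over Stag1 plus Stag2 was 0.264, 0.136, 0.197 and 1.82, which follows from the different exon lengths. No paired analysis was possible because each time point has 1 library, and for the same reason no replicate could be left out. Depth limits mainly Stra8 and Gm1564 at E11.5 and E12.5, where counts were at most 27.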
